A study of Mus musculus with 4 samples.

Results

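The genes described here are 9 genes of the interferon response and of antigen presentation: Ifi202b, Ifi27, Isg15, Irf1, B2m, H2-K1, H2-D1, Tap1 and Tap2. They were measured in clonal lines of the mouse neural stem cell line c17.2, which grows without limit in culture. Clone 42 and clone 48 carry a stable Nurr1 transgene, whose product is a nuclear receptor (gene symbol Nr4a2), and puroB and puroD carry the empty puromycin vector. The submitters matched clones of similar proliferation rate, which makes clone 42 and puroB the first pair and clone 48 and puroD the second. What drives the transgene, and the animal the line came from, is not stated in the sources read here. Every line is 1 clone measured on 1 array, so each label group has 2 clones, and a difference between groups cannot be told apart from one between clones. All values are from bulk RNA, in which fewer expressing cells and less RNA per cell cannot be told apart.

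Probe sets were assigned to the members by symbol. Of 12403 gene probe sets, 14 carried 1 of the 9 symbols as their only one, and 4 more named a member together with other genes. Of the 14, 8 probe sets for 7 genes were bright enough to be tested; the 6 others, among them all probe sets of Tap2 and Isg15, are given by their signals.

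Interferons are secreted by cells that sense infection, and their receptors act through JAK kinases, STAT factors and interferon regulatory factors such as Irf1. These bind short elements in the promoters of interferon-stimulated genes, namely the interferon-stimulated response element (ISRE) and the gamma-activated site (GAS). Among the induced genes are those of class I antigen presentation, in which the transporter made of Tap1 and Tap2 moves peptides into the endoplasmic reticulum and a heavy chain such as H2-K or H2-D, bound to beta-2 microglobulin, carries them to the surface. Cells of the nervous system generally show little of this machinery until interferon reaches them.

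The promoters are shown first, because the members differ in which of these elements were matched just before their start. Each line gives the 200 bases before the most upstream RefSeq start, 5′ to 3′ on the gene's strand, in build GRCm38.p6, and capitals mark matches to an element. RefSeq's table gave such a window for 7 of the 9 members; Ifi27 and Tap2 had none.
B2m (chr2:122147487-122147686, plus strand): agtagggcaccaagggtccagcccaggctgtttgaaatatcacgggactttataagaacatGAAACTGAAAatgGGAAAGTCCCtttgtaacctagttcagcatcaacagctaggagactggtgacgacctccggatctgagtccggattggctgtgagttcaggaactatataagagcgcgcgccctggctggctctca
Isg15 (chr4:156200819-156201018, minus strand): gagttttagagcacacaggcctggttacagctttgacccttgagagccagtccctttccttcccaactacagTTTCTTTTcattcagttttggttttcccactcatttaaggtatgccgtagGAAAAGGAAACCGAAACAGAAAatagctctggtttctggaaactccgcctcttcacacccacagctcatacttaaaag
H2-K1 (chr17:34000348-34000547, minus strand): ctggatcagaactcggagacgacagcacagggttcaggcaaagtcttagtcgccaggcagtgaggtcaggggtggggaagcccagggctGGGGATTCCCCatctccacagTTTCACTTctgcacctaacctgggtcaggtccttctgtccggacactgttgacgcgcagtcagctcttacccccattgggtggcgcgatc
H2-D1 (chr17:35262894-35263093, plus strand): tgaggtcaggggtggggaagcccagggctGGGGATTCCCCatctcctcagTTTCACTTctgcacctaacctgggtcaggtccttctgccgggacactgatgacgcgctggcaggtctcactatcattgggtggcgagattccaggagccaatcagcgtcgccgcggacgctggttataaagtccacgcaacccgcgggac
Irf1 (chr11:53769814-53770013, plus strand): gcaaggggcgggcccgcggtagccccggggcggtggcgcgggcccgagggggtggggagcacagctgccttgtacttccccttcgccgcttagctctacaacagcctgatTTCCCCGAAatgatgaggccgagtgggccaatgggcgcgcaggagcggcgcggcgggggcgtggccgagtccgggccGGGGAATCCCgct
Ifi202b (chr1:173982845-173983044, minus strand): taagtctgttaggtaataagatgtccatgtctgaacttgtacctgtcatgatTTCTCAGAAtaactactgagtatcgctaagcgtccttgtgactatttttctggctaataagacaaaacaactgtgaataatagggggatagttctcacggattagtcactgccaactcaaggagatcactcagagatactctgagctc

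The ISRE core (GAAA, any 2 bases, GAAA), searched like the others on both strands, matched in B2m (GAAACTGAAA) and at 3 overlapping places in Isg15, against 2.33% of 27025 promoter windows of the same length. The shorter core that interferon regulatory factors contact, AANNGAAA, lies within every ISRE match; it was also found apart from one in H2-K1 and H2-D1, as AAGTGAAA on the opposite strand, and once more in Isg15; 4636 of the windows hold it. The NF-kappa-B consensus, present in 3.03% of windows, matched in B2m, H2-K1, H2-D1 and Irf1. The GAS core TTCNNNGAA, present in 5.58%, matched in Irf1 as TTCCCCGAA and in Ifi202b as TTCTCAGAA. None of these letter patterns lay in the 200 bases of Tap1. Within their windows H2-K1 and H2-D1 share a run of 46 identical bases that holds their kappa-B match. The run begins at the edge of the H2-D1 window, so it may be longer. These matches describe letters only and say nothing of what is bound in these cells.

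The array holds control probe sets for 15 bacterial transcript fragments (dap, lys, phe, thr and trp), whose signals show how bright an array is without mouse target. Their highest signal was 62.7 and 39.1 in clones 42 and 48, and 49.8 and 59.1 in puroB and puroD. Nr4a2 itself did not check the labels: probe set 92248_at gave 320 and 206 in clones 42 and 48, with 485 and 254 in puroB and puroD, and 92249_g_at was likewise lower in the Nurr1 clone of each pair. Whether these probes lie in the transgene is not known here, so the lines are called Nurr1-labelled and each direction is that of the labels. The neural stem cell label held for nestin (Nes), with signals between 3030 and 3720. Fabp7, the brain lipid-binding protein of radial glia, gave 564 and 157 in clones 42 and 48, with 1292 and 1539 in puroB and puroD, a mean log2 difference of -2.24 (limma adjusted p = 0.0503). Of 6 neural stem cell markers, Vim exceeded the highest bacterial control in 2 of the 4 clones and Pax6 in 1, the others in all; the 6 summed to 4346 and 4459 against 5305 and 5359, and their part in the results was not tested. The actin control's ratio of 3′ to 5′ signal, a sign of RNA integrity, was higher in the Nurr1-labelled clone of both pairs (1.68 against 1.51, and 2.41 against 2.0). The ratio of the Gapdh control ran the same way (0.935 against 0.859, and 1.24 against 0.973). The part of RNA integrity in the results was not tested.

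The question of the design is which transcripts differ between Nurr1-labelled clones and their matched controls. Of the 9 genes, Ifi202b stood out with higher signal in both Nurr1-labelled clones, and Tap1 had lower signal in both at its tested probe set. That Tap1 probe set passed the filter only through the controls, and the other Tap1 probe set did not share its order. Ifi27 was high in clone 42 alone, and the class I heavy chains, beta-2 microglobulin and Irf1 had mean differences smaller than their standard errors. Isg15 and Tap2 lay at background. Of the 8 tested member probe sets 0 passed limma's test at an adjusted p under 0.05, as against 0.109% of all 6419 tested probe sets, and 1 had an unadjusted p under 0.05, where 7.38% of all did.

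**Figure D1:**
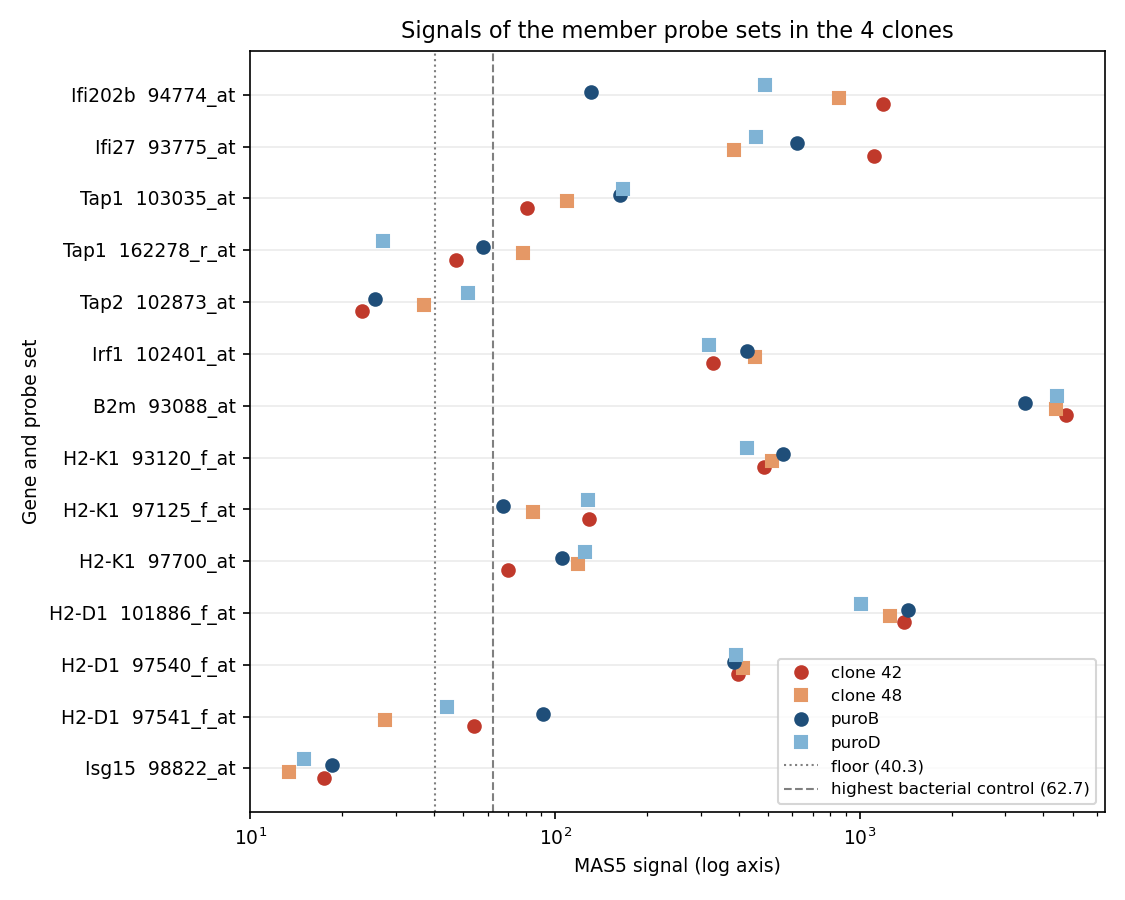
MAS5 signal (x axis, log scale) of the 14 probe sets that name 1 member, 1 row each, with 1 point per clone; the dotted line is the floor (40.3) and the dashed line the highest bacterial control of any array (62.7). Ifi202b ranges from 131 in puroB to 1191 in clone 42, B2m lies between 3478 and 4746, and Isg15 lies left of both lines in every clone.

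Ifi202b encodes p202, a protein of the interferon-inducible Ifi200 family that binds DNA and restrains the DNA sensor Aim2. Its signal at 94774_at was 1191 and 856 in clones 42 and 48, with 131 and 488 in puroB and puroD. Both Nurr1-labelled clones lay above both controls, but the controls were far apart, with puroD 3.73-fold above puroB, while clone 42 was only 1.39-fold above clone 48. In the matched pairs the signal was 9.11-fold and 1.76-fold higher, or 3.19 and 0.81 on the log2 scale. The mean log2 difference was 2.0 ± 0.43 (limma's SE, n = 2 clones per group; 95% interval 1.09 to 2.91). This SE, like the others from the same fit, rests mostly on the spread of other probe sets and does not measure that of these clones. Both pair values lay outside the interval. limma's unadjusted p was 0.00033 and its Benjamini-Hochberg adjusted p 0.0853, above the threshold. With 1 clone left out the fit has 3 arrays and no pair term, and the single clone of one group is assumed to vary like the other group. Without puroB the difference was then 1.05 (limma adjusted p = 1.0), and without puroD it was 2.95 (0.00756). Adjusted p-values over the other settings ran from 0.00368 to 0.903, the lowest with arrays scaled to the median of all rows, where the difference was 2.17 and the median of all tested probe sets moved from -0.04 to 0.13.

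The range of Ifi202b over the 4 clones, 3.19 on the log2 scale, was wider than that of 99.7% of tested probe sets. A second probe set, 161173_f_at, names Ifi202b together with a predicted locus and was too dim to be tested, at 191 and 107 in clones 42 and 48, and 43.9 and 104 in puroB and puroD. It was again lowest in puroB, where its signal was under that array's highest bacterial control, and in the second pair it differed by only 0.04 on the log2 scale. Of 6 fibroblast and mesenchymal markers the brightest, Col3a1, ran in the same order of clones as Ifi202b, at 5020 and 4010 in clones 42 and 48, and 1288 and 1750 in puroB and puroD. Col1a2 was high in clone 42 (2691, against 524 to 1054 in the other clones), whereas Col1a1 was highest in puroD. Dcn, Lum and Thy1 were dim, and each exceeded the highest bacterial control in only 1 clone. That clone was puroD for Dcn (73.9), puroB for Lum (77.8) and clone 42 for Thy1 (75.7). Of the 6, 0 lay under the highest bacterial control in every clone and 3 exceeded it in all 4; the 6 summed to 8144 and 5310 against 2206 and 3512, and their part in the result was not tested.

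Other Ifi200 genes, which sit in the same cluster on chromosome 1, were looked at after the values of Ifi202b were seen. Ifi204, whose product p204 takes part in growth arrest and in sensing of DNA, had signals at 98465_f_at of 441 and 547 in clones 42 and 48, with 153 and 285 in puroB and puroD. Both Nurr1-labelled clones were above both controls, with log2 differences of 1.52 and 0.94 and a mean of 1.23 ± 0.31 (SE, n = 2 per group; limma adjusted p = 0.148). The f in this probe set's name marks probes that fit several members of a gene family, so signal from related transcripts cannot be told apart from its own. Over the 9 probe sets that name an Ifi200-family gene, with signals under the floor set to it, clone 42 was above puroB in 7, clone 48 above puroD in 4, and puroB was the lowest clone in 5. The 9 include those of Ifi202b and can read each other's transcripts, so they are not separate measurements. Shares over all probe sets were not computed for these counts. A dim probe set of Ifi204 (161180_r_at) gave 96.9 and 34.8 in clones 42 and 48, and 21.5 and 42.8 in puroB and puroD. A probe set shared by 4 genes of the family (94224_s_at) was also lower in clone 48 than in puroD, with 151 and 146 in clones 42 and 48, and 55.8 and 220 in puroB and puroD. Of the 9, Ifi209 (103615_at) and 1 probe set of Ifi204 (98466_r_at) exceeded the highest bacterial control on none of the arrays.

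**Figure D2:**
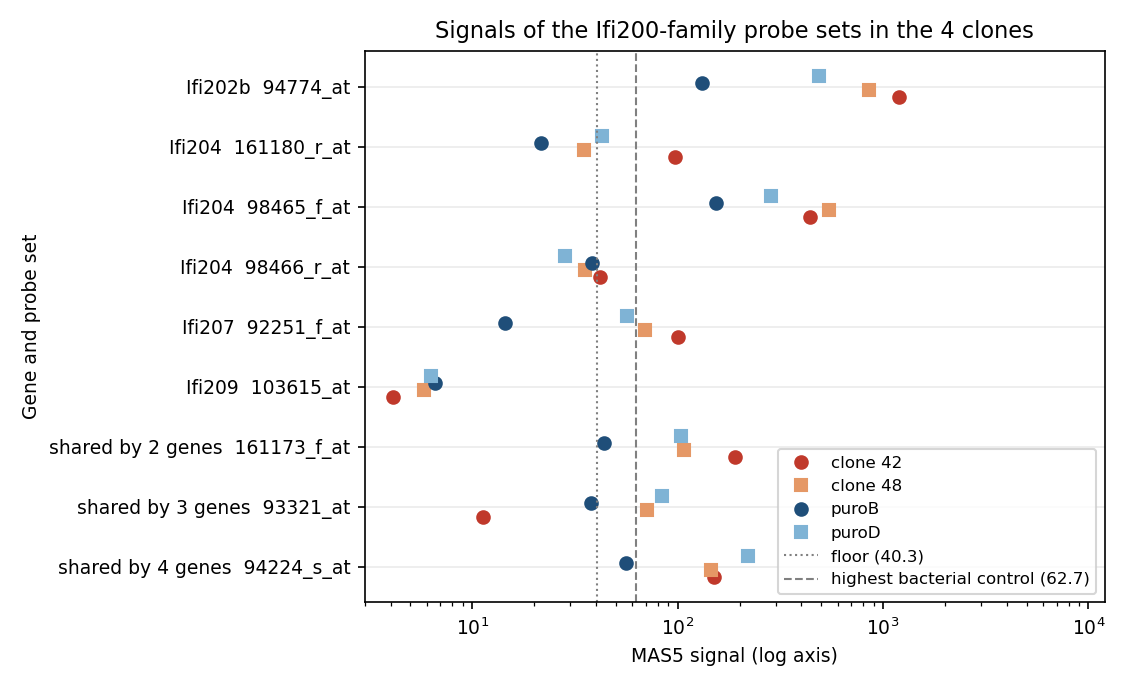
MAS5 signal (x axis, log scale) of the 9 probe sets that name an Ifi200-family gene, with 1 point per clone and the same 2 lines as for the members. Dark blue circles, puroB, are leftmost in 6 of 9 rows, and in 5 of 9 when signals left of the floor are taken as equal; in the row of Ifi202b they lie at 131, against 488 to 1191 for the other clones.

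Ifi27 encodes a small interferon-induced protein of mitochondrial and nuclear membranes. Its signal at 93775_at was 1114 and 385 in clones 42 and 48, with 623 and 456 in puroB and puroD. Only clone 42 was high, at 1.79-fold its match, whereas clone 48 lay 1.19-fold under its own, so the groups overlapped. The mean log2 difference was 0.30 ± 0.32 (SE, n = 2 per group; 95% interval -0.39 to 0.98; limma adjusted p = 0.965), and without clone 42 it was -0.47.

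Isg15, a ubiquitin-like protein that is joined to other proteins after interferon, gave 17.4 and 13.4 in clones 42 and 48, and 18.5 and 15.0 in puroB and puroD at 98822_at. Each value lay under the highest bacterial control of its array, so no level could be read and no fold is given. Its promoter, shown above, has 3 matches to the ISRE core, the most among the 7 members with a window.

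Irf1, the transcription factor that drives many interferon-gamma targets, had signals at 102401_at of 330 and 452 in clones 42 and 48, with 426 and 320 in puroB and puroD. The order ran opposite ways in the pairs, lower by 0.37 in clone 42 and higher by 0.50 in clone 48 on the log2 scale. Their mean was 0.07 ± 0.31 (SE, n = 2 per group; 95% interval -0.60 to 0.73; limma adjusted p = 0.995).

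B2m encodes beta-2 microglobulin, the light chain of every class I molecule. Its probe set 93088_at gave 4746 and 4411 in clones 42 and 48, with 3478 and 4424 in puroB and puroD. PuroB lay below the other clones, which were close together. On the log2 scale the pairs differed by 0.45 and -0.0043, with a mean of 0.22 ± 0.32 (SE, n = 2 per group; 95% interval -0.46 to 0.90; limma adjusted p = 0.977).

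H2-K1 and H2-D1 encode the heavy chains that present peptides to CD8 T cells. The tested probe set of H2-K1, 93120_f_at, gave 484 and 516 in clones 42 and 48, and 560 and 426 in puroB and puroD, and its group difference was 0.03 ± 0.29 (log2, SE; 95% interval -0.59 to 0.66; limma adjusted p = 0.999). H2-D1 gave 1398, 1257, 1443 and 1008 in the same order of clones at 101886_f_at, with 0.14 ± 0.31 (95% interval -0.52 to 0.79; limma adjusted p = 0.995). For both, puroB was the highest and puroD the lowest clone, and the groups overlapped. The other tested H2-D1 probe set, 97540_f_at, was nearly level, with 398 and 412 in clones 42 and 48, and 386 and 391 in puroB and puroD. There the Nurr1-labelled clones were above both controls, yet the whole range was 0.10 on the log2 scale, smaller than in all but 0.327% of tested probe sets, and the difference was 0.06 ± 0.29 (SE; limma adjusted p = 0.995).

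The class I probe sets did not agree on an order of the clones. H2-K1 at 97125_f_at gave 129 and 84.5 in clones 42 and 48, and 67.3 and 128 in puroB and puroD, whereas H2-K1 at 97700_at gave 70.2, 119, 105 and 125. The latter was lower in the Nurr1-labelled clone of both pairs, by 0.58 and 0.07 on the log2 scale. Clone 42 was level with puroD as the highest in one and was the lowest in the other, and neither was bright enough to be tested. The third H2-D1 probe set, 97541_f_at, exceeded the highest bacterial control only in puroB, with 91.5. A probe set that names 10 class I genes and pseudogenes, H2-K1 and H2-D1 among them (102161_f_at), gave 597 in clone 42 and 588 in puroB, against 402 in clone 48 and 409 in puroD. It thus divided the clones by matched pair, by 0.55 ± 0.28 on the log2 scale (SE; limma adjusted p = 0.549), and not by label. The remaining shared class I probe sets were dim: 97174_r_at lay between 66.1 and 73.2, and 95773_at between 7.1 and 11.8. Class I heavy chain genes are so alike that the array cannot assign such signals to single genes.

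Tap1, a subunit of the peptide transporter, was the only member with a tested probe set of lower signal in the Nurr1-labelled clone of both pairs. At 103035_at it gave 80.7 and 109 in clones 42 and 48, with 163 and 167 in puroB and puroD. The groups did not overlap, and the controls were nearly equal. Signal was 2.02-fold lower in the first pair and 1.53-fold lower in the second. The probe set passed the filter of 145.05 only through the controls, where it was high, so its direction was favoured by the filter and the filtered test is not given as a result. In the fit of all probe sets without a filter the mean log2 difference was -0.81 ± 0.32 (SE, n = 2 per group, limma unadjusted p = 0.138, adjusted p = 0.903). The SE and p of that fit cannot be set beside those of the main fit. For Ifi202b its SE was 0.89 against 0.43 in the main fit, and for H2-D1 at 101886_f_at 0.15 against 0.31. A second Tap1 probe set, 162278_r_at, showed no such order, with 47.1 and 78.4 in clones 42 and 48, and 57.9 and 27.3 in puroB and puroD, and only 2 of the 4 exceeded their array's highest bacterial control.

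Tap2, the other subunit, gave 23.3 and 37.0 in clones 42 and 48, and 25.7 and 51.9 in puroB and puroD, each under the highest bacterial control of its array. In the mouse annotation Psmb9, Tap1, Psmb8 and Tap2 lie next to each other in this order on chromosome 17. Psmb8 and Psmb9, which encode immunoproteasome subunits that cut peptides for class I, were chosen here after the values were seen. They were also under that level in every clone, with at most 22.4 and 17.0.

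**Figure D3:**
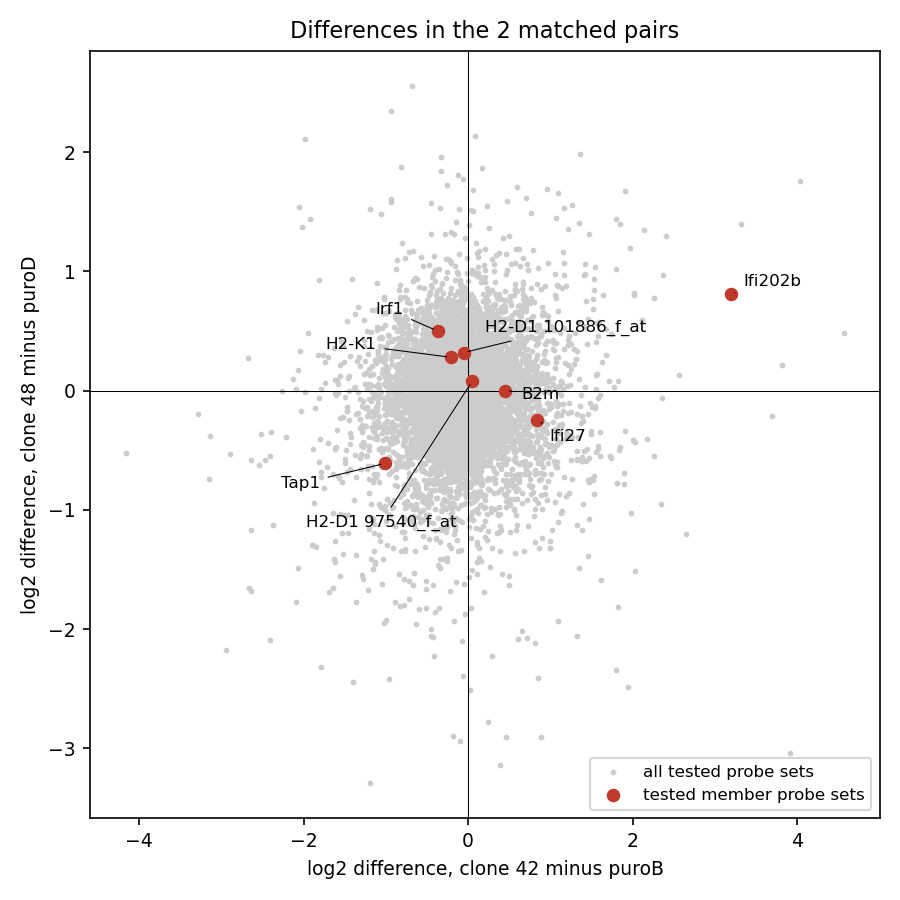
Log2 difference of clone 42 minus puroB (x axis) against clone 48 minus puroD (y axis) for the 6419 tested probe sets (grey) and the 8 tested member probe sets (red). Ifi202b lies at 3.19 and 0.81, Tap1 at -1.01 and -0.61, and the other 6 lie within 1 log2 unit of 0 on both axes.

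Counted over the 8 tested probe sets, 2 were higher in both pairs (Ifi202b and 97540_f_at of H2-D1), against 21.7% of all tested, and 1 was lower in both (Tap1), against 29.7%. These are also the ones whose label groups did not overlap, though for Tap1 the filter, passed only in the controls, favoured both; the pattern was found with the Nurr1-labelled clones higher in 12.8% and lower in 17.9% of all probe sets. In the first pair Ifi202b was at least 2-fold higher in clone 42, as were 3.57% of all probe sets, and Tap1 at least 2-fold lower, as were 4.78%; either way it was 8.35%. In the second pair none of the 8 was 2-fold apart, where 1.67% of all were higher and 3.72% lower in clone 48 (5.39% in all). Between the controls Ifi202b alone was 2-fold apart and lower in puroB, as were 3.04% of all, against 3.02% higher and 6.06% either way. Between the Nurr1-labelled clones Ifi27 alone was, and higher in clone 42, as were 6.15% of all, against 4.58% lower and 10.7% either way. These counts are too small to set the members apart from other probe sets.

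The members were also compared between the matched pairs, clone 42 and puroB against clone 48 and puroD, in the same fit. Ifi27 differed most, with a log2 difference of 0.99 ± 0.32 toward the first pair (SE; 95% interval 0.30 to 1.68; limma unadjusted p = 0.00784, adjusted p = 0.234). Ifi202b gave -0.71 ± 0.43 (limma adjusted p = 0.627). With 3 arrays left, the label could not be kept in this fit beside the pair, so values without puroB set clone 42 alone against the second pair and mix pair with label: they were 1.41 for Ifi27 (limma adjusted p = 0.0421, with the spread of the second pair) and 0.88 for Ifi202b. The remaining tested members lay between -0.23 and 0.34. Of the 8, 0 passed, as against 0.483% of all probe sets, and 1 had an unadjusted p under 0.05, as against 10.6%.

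Other genes of these pathways came from 9 lists of 99 genes, members included. On the array 75 of them had a probe set of their own, of which 38 exceeded the highest bacterial control in all 4 clones and 24 in none; 30 were tested. With the Nurr1 label 0 of the 30 passed limma's test (0.101% of all 4957 tested genes did) and 3 had an unadjusted p under 0.05, where 6.82% of all genes did: Ifi202b, Ifi204 and Ifnar1. The 23 tested genes that are not members had a median log2 difference of 0.03, against -0.02 for all tested genes; 6 had a higher and 4 a lower signal with the label in both pairs, shares that were 22.4% and 28.3% over all genes.

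Of the 11 receptors and signalling genes on the array 9 were tested, with a median of 0.03. Ifnar1, a chain of the type I interferon receptor, gave 978 and 457 in clones 42 and 48, with 549 and 311 in puroB and puroD. It was higher in both pairs, by 0.83 and 0.55, with a mean of 0.69 ± 0.29 (SE, n = 2 per group, limma unadjusted p = 0.03, adjusted p = 0.568). It was also 0.82 higher in puroB than in puroD, and 1.1 higher in clone 42 than in clone 48. The matched pairs thus differed by more than the label groups, by 0.96 ± 0.29 toward the first pair (SE, limma unadjusted p = 0.00482, adjusted p = 0.201). Ifnar2, the other chain, had a mean log2 difference of 0.45, with 1.08 in the first pair and -0.19 in the second at its brightest probe set; its other tested probe set gave 0.15 and 0.58. Socs1, the feedback inhibitor of JAK kinases, had -0.51. The ligand genes Ifng and Ifnb1 were not bright enough to be tested.

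Regulatory factors and antiviral genes were mostly too dim to be tested. Irf3 and Irf9 had mean log2 differences of 0.21 and 0.11. Of the 7 factors on the array Irf8 alone lay under the highest bacterial control in every clone. The untested Irf5 and Irf7 exceeded it in all 4. Of 16 antiviral genes on the array 3 were tested: Ifi27, Ifit2, which had -0.15, and Ifitm3, a membrane protein that blocks virus entry, which had -0.13. Ifitm3 gave 1492 and 2290 in clones 42 and 48, and 2142 and 1911 in puroB and puroD. Mx1, Ifit1 and Oas1g, antiviral genes picked here after their values were seen, were at most 20.2, 5.4 and 18.7 in any clone. Of 6 interferon-inducible GTPases 0 were bright enough to be tested. Of the ISG15 conjugation genes Uba7, the activating enzyme, was tested and had -0.28.

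In antigen presentation, 7 of 11 peptide loading and processing genes were tested, with a median of 0.02. Pdia3, a disulfide isomerase of the loading complex, had a mean log2 difference of 0.32, and Tapbp, which bridges the transporter and the heavy chain, had -0.15. Tapbp is given at its brightest probe set, where the matched pairs differed by 0.94 ± 0.3 toward the first (SE, limma unadjusted p = 0.00667, adjusted p = 0.225). With the label its other tested probe sets gave -0.14 and 0.17, and 0.84 and -0.52, in the first and second pair. Among heavy chain genes H2-Q10 had 0.08. H2-M3, which presents formylated peptides, is named for its values: it gave 236 in clone 42 and 111 in clone 48 at 102731_g_at, against 46.2 in puroB and 47.5 in puroD, both under the highest bacterial control. This probe set, the brighter of 2 for H2-M3, was not tested, because only 1 array exceeded the filter. The other was not tested either, and its values are not given here. Of the class II genes 2 of 9 were tested, the invariant chain Cd74, which passed the filter only in the Nurr1-labelled clones, with 0.52, and H2-DMa with -0.04.

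**Figure D4:**
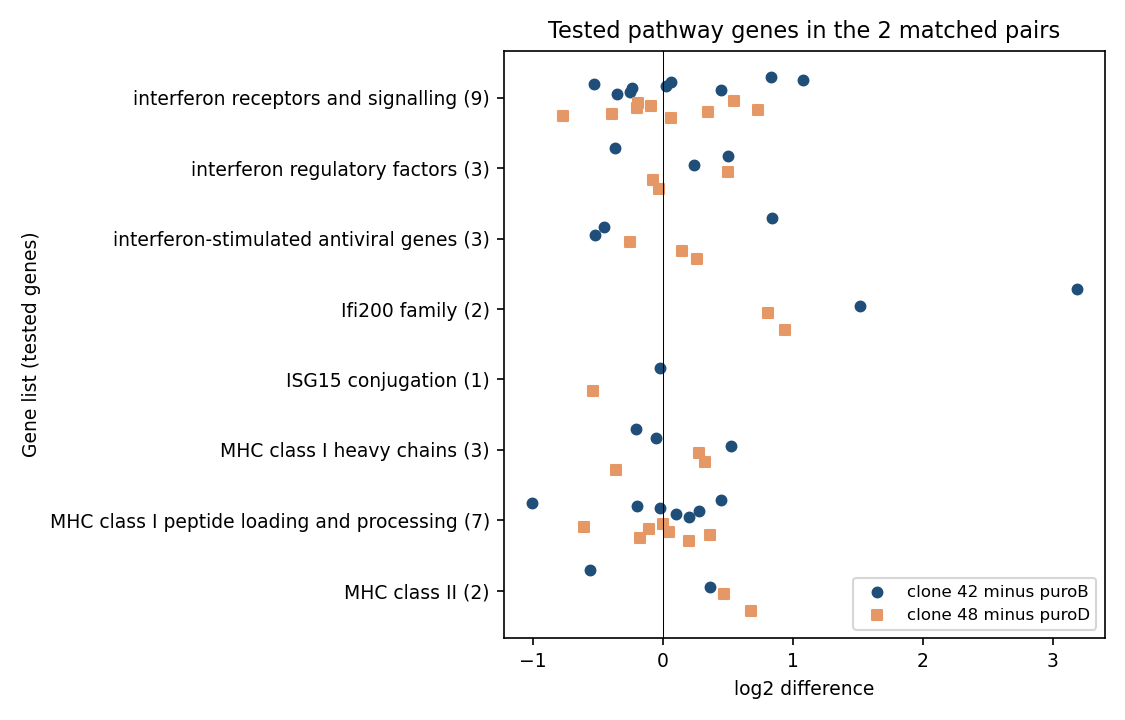
Log2 differences (x axis) of the tested genes of each pathway list (rows, number of genes in brackets), with clone 42 minus puroB as blue circles and clone 48 minus puroD as orange squares. The 2 Ifi200-family genes lie right of 0 in both pairs, from 0.81 to 3.19, while each other list but that of ISG15 conjugation, which has 1 tested gene, lies on both sides of 0.

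The 5 probe sets whose centred log2 signals over the 4 clones lay nearest to those of Ifi202b, among 5819 compared, were those of Nefl (distance 0.765), Urm1 (0.84), Cebpd (1.06), Mea1 (1.09) and Tpsb2 (1.11). Nefl, the light neurofilament chain, gave 505 and 365 in clones 42 and 48, and 98.1 and 186 in puroB and puroD. Each of the 5 was lowest in puroB, as is Ifi202b, an order that their choice by likeness favoured. With 4 arrays such likeness is a description of these clones.

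Immune cells express interferon and class I genes strongly, so their markers were read on the same arrays. Of 12 microglia and macrophage markers 6 lay under the highest bacterial control in every clone, among them Ptprc, the pan-leukocyte marker CD45, at no more than 14.1, and Aif1 at no more than 13.9. Cd14 (171 to 330), Csf1r (155 to 233), Cx3cr1 (138 to 260), C1qb and Cd68 exceeded it in all 4 clones, and C1qa in 3. The summed signal of the 12 was 1124 and 853 in clones 42 and 48, with 1258 and 1098 in puroB and puroD. Of 7 T, B and NK cell markers 3 were under that level in every clone, and their sum was 323 and 329 in the Nurr1-labelled clones against 535 and 431 in the controls. The 6 endothelial markers, 3 of them under that level in every clone, summed to 3410 and 4167 against 4280 and 4600. Single markers went both ways: Eng, Cd4 and C1qa were lower in the Nurr1-labelled clone of each pair, Kdr was higher in each, Csf1r and Cd79a were higher in clone 42 than in puroB, and Cx3cr1 was higher in clone 48 than in puroD. The part of such cells in the results was not tested.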

How the data were processed

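Total RNA of 4 clones was measured on Affymetrix mouse arrays, 1 per clone. The deposited intensity of each probe set is a linear MAS5 signal, per the submitters' processing notes; neither the MAS5 version nor its scaling is stated there. For the present comparisons arrays were brought to a common trimmed mean of 500 (2% off each end), low signals were raised to a floor of 40.27, the 30th percentile, and log2 values were used. A probe set was tested if 2 or more of the 4 arrays passed 145.05, the median signal; 66 array controls stayed out. limma 3.58.1 in R 4.3.3 was fitted across the 6419 left (lmFit with Nurr1 label and matched pair, eBayes with an intensity trend, Benjamini-Hochberg adjustment, threshold 0.05), and the function was tested on simulated data. The pairing comes from the labels; deviations of same-pair arrays from group means correlated with r = 0.192 across probe sets. The fit leaves 1 residual degree of freedom, to which the prior adds 13.1. Single arrays were compared by log2 ratio with no p-value. The number of arrays limits the precision.

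Symbols came from the platform annotation: 10814 of 12403 gene probe sets had 1, 396 several and 1193 none. The rule for naming took every probe set of the members and up to 3 tested genes of the largest mean difference per pathway list. It also took the 5 probe sets nearest in pattern to the member with the widest range. Other named genes, among them Irf8, Ifng, Ifnb1 and single cell type markers, fall outside this rule. Only some of these are marked as chosen after their values were seen. The members and lists were chosen with earlier results of these data known. Alternatives were the fit without the pair, other scalings, floors and filters, no trend, and each clone left out. Promoter sequences are RefSeq's, build GRCm38.p6.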

Additional observations from a re-analysis of the deposited data

Results flagged for a closer look

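For 5 tested member probe sets the matched pairs moved in opposite directions. This difference between pairs was not tested, since each pair is 1 array against 1. The first pair's log2 difference minus that of the second was 1.09 for Ifi27 (0.84 and -0.25), -0.86 for Irf1 (-0.37 and 0.50) and -0.49 for H2-K1 at 93120_f_at (-0.21 and 0.28). It was 0.45 for B2m (0.45 and -0.0043) and -0.37 for H2-D1 at 101886_f_at (-0.05 and 0.32). Of all 6419 tested probe sets, 3124 had opposite signs or no difference in a pair.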

How the results depend on the processing

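Over the 9 tested probe sets that name a member, 102 of 115 values against the label kept direction and call under the alternatives. Between pairs 97 of 106 did. No member passed in the main fit, so a kept call is a kept absence of one. Other floors and filters, no trend and the fit without the pair left the estimates of these probe sets unchanged, so direction could not change there. The call of Ifi202b was gained with scaling to the median of all rows and without puroD, and that of Ifi27 between pairs without puroB, as given above. Fits with 1 clone left out have 3 arrays and keep only the label or only the pair, so 2 choices change at once, and a single clone is assumed to vary like the other group. In them, the values that changed sign ran from -0.12 to 0.40 for H2-D1 at 101886_f_at, from -0.16 to 0.29 for Irf1, from -0.16 to 0.23 for H2-K1, from -0.47 to 1.06 for Ifi27 and from -0.29 to 0.28 for the shared 102161_f_at. The last of these, near 0, was 0.05 with quantile normalization, 0.17 with scaling to the median and 0.04 with scaling to the median of bright probe sets, an alternative chosen after seeing the data. Between pairs they ran from -0.27 to 0.23 for Irf1, from -0.74 to 0.27 for Tap1, from -0.34 to 0.10 for B2m, from -2.3 to 0.88 for Ifi202b and from -0.07 to 0.01 for H2-D1 at 97540_f_at, and H2-K1 was -0.03 with scaling to the median. The causes were not tested.

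The count of all probe sets that passed against the label, 7, was 0 without the matched pair as a replicate block (287 at an unadjusted p under 0.05 by limma), and 0 with quantile normalization (375), no floor (473), a higher floor (474), no filter (560) and the median of bright probe sets (466). It was 51 with scaling to the median and 49 with all 4 arrays above the filter, and 0 to 51 with 1 clone and the pair term left out. Between pairs the count of 31 was 0 with quantile normalization (581 at an unadjusted p under 0.05 by limma) and no filter (682), 17 without an intensity trend, 16 with the median of bright probe sets, 63 with scaling to the median, 100 with the filter on all 4 arrays, and 0 to 129 with 1 clone and the label term left out. Of pathway genes 2 passed with scaling to the median (Ifi202b and Ifi204) and 1 with the filter on all 4 arrays (Ifi204), and 0 to 1 with 1 clone left out. Members 2-fold apart in the first pair numbered 2, and 1 with quantile normalization, scaling to the median or the median of bright probe sets; in the second pair there was 1 with scaling to the median. Signals under the floor carry no order, which limits Isg15 and Tap2.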
